A study of Mus musculus with 14 samples.

Results

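The change in gene expression in male mouse liver from 3 to 4 wk of age, written here as M4/M3, was described gene by gene. No array compared 4 wk with 3 wk male liver directly. Both were hybridised against pools of 8 wk male liver RNA, and M4/M3 was taken as log2 M8/M3 minus log2 M8/M4 within each replicate number, so that the shared 8 wk pool cancelled. This used 4 of the 14 two-colour Agilent arrays of the series, and 13525 of the 19751 genes named on the array could be tested. All groups were intact CD1 mice, an outbred stock, with no treatment or altered gene named in the labels. M3 was liver of 10 males at 3 wk in 2 pools of 5, M4 was liver of 12 males at 4 wk in 2 pools of 6, and M8 was liver of 12 males at 8 wk in 2 pools of 6. F3, F4 and F8 were the matching female groups. With pooled RNA the spread between single mice could not be seen, and each M4/M3 value rests on 2 pairs of pools (n = 2).

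Weaning is the passage from milk, which is rich in fat and cholesterol and poor in starch, to solid food, which is mostly carbohydrate. Liver carries much of this change. It makes fatty acids and cholesterol when the diet does not supply them, converts cholesterol to bile acids and makes glucose between meals. The same weeks see the end of the rapid growth of the organ, during which hepatocytes replicate their DNA and divide, and precede puberty, when the pulsatile release of growth hormone sets the male pattern of liver genes. The study took 3 wk as the time of weaning and 4 wk as a time just before puberty.

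On the 4 arrays, 66.6% to 69.1% of probes in the red channel and 60.4% to 69.6% in the green channel were well above background. The Y-linked genes Ddx3y, Eif2s3y, Uty and Kdm5d were higher in male than in female liver on all 6 arrays that compared the sexes at 3, 4 or 8 wk, and Xist was lower on all 6, as the labels of these groups require. In M4/M3 the 4 Y-linked genes were at -0.07 to 0.52. All 7 hepatocyte markers were well above background on all 4 arrays, and their median log2 M4/M3 was 0.00. The M8/M3 pair and the M8/M4 pair were scanned on different days, and M4/M3 through the M8 pools cannot be told apart from that difference. A second route through the female pools (M4/F4 minus M3/F3 plus F8/F3 minus F8/F4) keeps each step within 1 scan day. The 2 routes gave means within 1.5-fold of each other for 98.3% of the probes tested, and the difference between routes had an SD over probes of 0.22 and 0.24 on the log2 scale in replicates 1 and 2, against 0.29 for the difference between replicates. Most probes changed little, so the share within 1.5-fold says little about probes that changed. Both routes also use the same M3 and M4 pools.

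No gene passed the test on the 4 arrays of the M8 route. With limma, in which the F8/F3 and F8/F4 arrays helped to estimate the spread, 0 of 13525 genes (0%) were higher and 0 (0%) were lower at an adjusted p under 0.05 and a change of more than 1.5-fold either way, and the smallest adjusted p was 0.0571. The unadjusted p was under 0.05 for 24.1% of probes. At that unadjusted threshold with the same fold, 299 genes were higher (2.21%) and 271 lower (2.00%). Other treatments of the same comparison did make calls. They gave 31 higher and 45 lower genes in a model of all 7 comparisons with a dye term and no pairing of the replicates, 104 and 61 with single-channel intensities, 75 and 75 with the deposited errors at an unadjusted p below 0.0001, and 0.577% and 0.791% of genes with the mean over the probes of a gene.

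Another alternative estimated the level of each of the 12 pools from all 14 arrays, so that M4/M3 came from both routes together. It called 142 of 13522 genes higher at 4 wk (1.05%) and 154 lower (1.14%), or 2.19% in either direction. This 14-array fit was planned as an alternative and was turned to after the M8 route alone had called no gene. Below, "rose", "fell" and "called" refer to it, and its values rest on the female pools as well as on M8. All 154 genes that fell had M4/M3 below 0 in both replicates of the M8 route and also of the female route. All 142 genes that rose were above 0 in both replicates of the M8 route, and 140 of them in both of the female route. In the fit of the M8 route their adjusted p ranged from 0.0571 to 0.229. Since the 14-array fit contains both routes, these counts are no independent support for it. The route means differed by more than 1.5-fold for 7 of the genes that fell and 8 of those that rose. Rebuilding the ratios from raw spot signals with another background correction and another normalization together (normexp and loess) left 52 genes higher and 43 lower, of which 50 and 41 were among those called before. Values on normexp and loess ratios below are from the 14-array fit unless the M8 route is named. Leaving out any 1 of the 14 arrays left 112 to 143 genes higher and 133 to 159 lower.

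**Figure D1:**
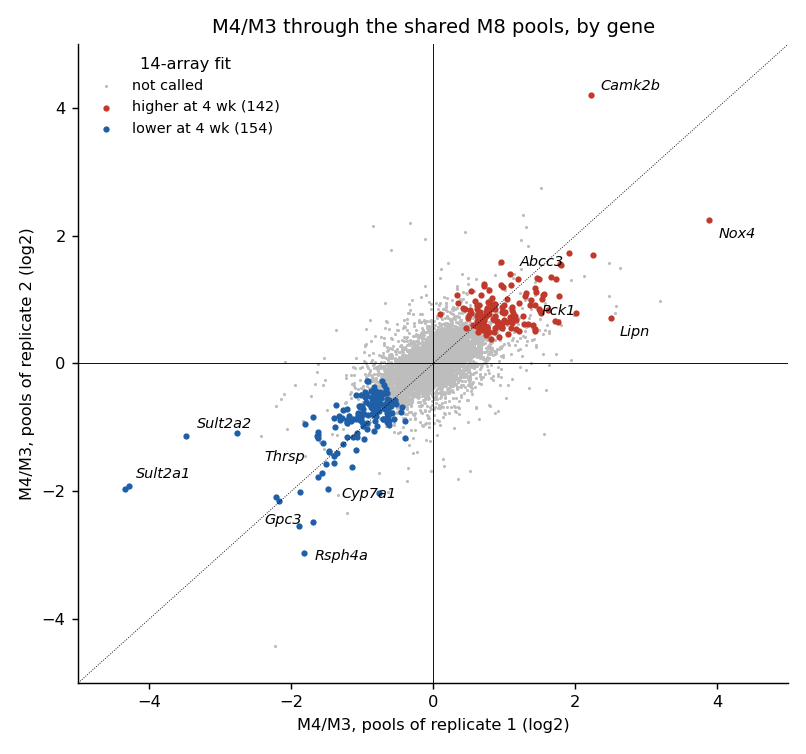
Log2 M4/M3 through the shared M8 pools of each of the 13525 genes tested, in the pools of replicate 1 (x axis) against those of replicate 2 (y axis). Red and blue points are the 142 and 154 genes called higher or lower at 4 wk by the 14-array fit, the dotted line is equality, and the Sult2a genes and Nox4 lie far from it because their size differed between replicates.

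Of 21 tested genes of fatty acid and triglyceride synthesis 4 fell and 0 rose, and 15 were below 0 in both replicates, against 1.14% and 32.4% of all genes. The median log2 M4/M3 was -0.41, against 0.01 over all genes tested. Thrsp, a thyroid hormone responsive protein of lipogenic tissues, was at -1.52 in replicate 1 and -1.58 in replicate 2. It fell 2.92-fold (log2 -1.55 ± 0.22, SE; adjusted p = 0.0265). Fasn, the fatty acid synthase, was at -1.21 and -0.89 and fell 2.11-fold (adjusted p = 0.0422). Acly, which makes cytosolic acetyl-CoA for fatty acids and sterols, was at -1.07 and -0.80 and fell 1.93-fold (adjusted p = 0.0249). Gpam, which begins triglyceride assembly, was at -0.81 and -0.82 and fell 1.73-fold (adjusted p = 0.0128). All 4 were below 0 in both pairs of pools. On the normexp and loess ratios 3 of the 4 were called, and Fasn was not (adjusted p = 0.0514). Pnpla3, a lipid droplet protein, had the same mean as Thrsp but unequal replicates, at -2.06 and -1.03, and was not called (adjusted p = 0.0773). Scd1, the main desaturase, differed in sign between replicates (-0.33 and 0.83), and the regulator Mlxipl was at 0.11 and -0.02. In female liver the median of the list was -0.18 in F4/F3.

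Of the glucose genes 3 were called. Pfkfb1, the bifunctional enzyme that sets the level of an allosteric activator of glycolysis, was at -0.87 and -0.69 and fell 1.72-fold (adjusted p = 0.023). It was 1 of the 2 that fell among 14 tested members of the list of glycolysis and fructose or galactose use, against 1.14% of all genes, and the median of the list was -0.02. Pck1, the cytosolic step of gluconeogenesis, was the 1 that rose among 12 members of the gluconeogenesis and glycogen list (median 0.02), against 1.05% of all genes. It was at 1.37 and 0.99 and rose 2.21-fold (adjusted p = 0.0374), but was not called on the normexp and loess ratios (adjusted p = 0.0594), which left 0 calls in that list. None of the 29 tested genes of fatty acid oxidation and ketogenesis was called in either direction. Their median was 0.08, 14 were above 0 in both replicates against 39.0% of all genes, and Cpt1a, the carnitine palmitoyltransferase that admits fatty acids to mitochondria, was at 0.32 and 0.28 (adjusted p = 0.0572).

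All 21 tested genes of cholesterol synthesis and uptake were below 0 in both replicates, with a median of -0.56 and a range of -0.91 to -0.21. Over all genes 32.4% were below 0 in both replicates. In the fit of the M8 route 20 of the 21 had an unadjusted p under 0.05 in this direction, against 11.5% of all genes. The 14-array fit called 6 of them lower, against 1.14% of all genes. With no fold threshold it called 11 lower, against 420 of all 13522 genes. Fdps, the farnesyl diphosphate synthase, was at -1.03 and -0.79 and fell 1.90-fold (adjusted p = 0.0291). Sc5d, of the last steps to cholesterol, was at -0.86 and -0.70 and fell 1.73-fold (adjusted p = 0.0317). Lss, which closes the sterol rings, was at -0.82 and -0.61 and fell 1.62-fold (adjusted p = 0.0293). These 3 were called with any 1 array left out. Mvd, of the mevalonate steps, fell 1.54-fold and was not called without M8/M4 replicate 2 (adjusted p = 0.0507). Hmgcs1, a synthase of the early steps, fell 1.53-fold, close to the threshold, and was called in 6 of the 14 fits that left out 1 array (adjusted p up to 0.0691). On the normexp and loess ratios 3 of the 6 genes were called. In F4/F3 the median of the list was -0.12, and no difference between the sexes passed for any member.

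The sterol response element is the word by which SREBP factors are known to act on these genes. The word TCACNCCAC was searched on both strands in the promoter windows of the RefSeq table, which run from 250 bases before to 50 bases after the start (build GRCm38.p6). It was present in 1.44% of the 27025 genes of the table and in 1 of the 13 tested list members with a window, Hmgcs1. Its window is printed for that reason, in the direction of the gene, with the word in capitals (chr13:119690101-119690400, plus strand).
Hmgcs1: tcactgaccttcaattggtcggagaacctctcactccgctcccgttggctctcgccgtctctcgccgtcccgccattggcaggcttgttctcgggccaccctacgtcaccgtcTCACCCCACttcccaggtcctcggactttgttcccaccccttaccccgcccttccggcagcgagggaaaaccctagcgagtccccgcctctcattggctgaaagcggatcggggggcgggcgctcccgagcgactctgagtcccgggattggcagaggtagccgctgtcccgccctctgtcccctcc

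Of 21 tested genes of bile acid synthesis and transport 1 fell and 1 rose, against 1.14% and 1.05% of all genes. Cyp7a1, the rate-limiting enzyme of bile acid synthesis, was at -1.48 and -1.96 and fell 3.25-fold (log2 -1.70 ± 0.22, SE; adjusted p = 0.023). It was lower at 4 wk than at either other age, since M8/M4 was 1.09 and 1.67 and M8/M3 was -0.39 and -0.30 (these 3 ratios share pools). In females F4/F3 was -0.24 and -0.73, and the difference between the sexes did not pass (adjusted p = 0.536). Abcc3, which exports bile acid and bilirubin conjugates to blood, was at 1.08 and 1.41 and rose 2.36-fold (log2 1.24 ± 0.09, SE; adjusted p = 0.00816). The median of the list was 0.12. Cyp7b1, of the alternative pathway, had a mean as far from 0 as that of Cyp7a1, at 2.47 and 1.06, but missed the threshold (adjusted p = 0.0508). Cyp8b1, which determines the share of cholic acid, was at 0.48 and -0.03. Slc10a2, the sodium-dependent bile acid carrier of ileum and bile duct and no member of the list, was at 1.73 and 1.32 and rose 2.90-fold (adjusted p = 0.0166).

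All 22 tested genes of DNA replication had M4/M3 below 0 in both replicates and an unadjusted p under 0.05 in the fit of the M8 route, against 32.4% and 11.5% of all genes, and the median was -0.53. By the 14-array fit 8 fell, against 1.14% of all genes, and 0 rose. With no fold threshold 16 were called lower, against 420 of all 13522 genes. Uhrf1, which carries DNA methylation through replication, was at -1.64 and -1.14 and fell 2.68-fold (adjusted p = 0.021). Hells, a chromatin remodeller, was at -1.22 and -0.92 and fell 2.05-fold (adjusted p = 0.019). Rrm2, the regulated subunit of ribonucleotide reductase, was at -1.08 and -0.87 and fell 1.97-fold (adjusted p = 0.0103). Of the helicase subunits Mcm2, Mcm3, Mcm4 and Mcm6 fell by 1.83-fold, 1.73-fold, 1.65-fold and 1.80-fold, and the primase subunit Prim1 fell 1.55-fold. Each of the 8 was called with any 1 array left out, and Mcm3, Mcm6 and Rrm2 were also called on the normexp and loess ratios. The female median was -0.36. Among the largest of these falls, F4/F3 of Uhrf1 was -1.03 and -1.17, and the 2 sexes did not differ beyond their error (adjusted p = 0.879).

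E2F factors are known to act on replication genes through words of the form TTTCCCGC, TTTCGCGC, TTTGCCGC or TTTGGCGC. One of these words, on either strand, was present in the promoter windows of 2.61% of the 27025 genes of the table. It was present in 8 of the 18 tested list members with a window, namely Mcm3, Mcm5, Mcm6, Mcm7, Cdt1, Pola1, Uhrf1 and Hells. Of these, Mcm5, Mcm7, Cdt1 and Pola1 were not called. Among the 7 genes that fell and had a window, 4 held a word, and Mcm2, Rrm2 and Prim1 held none. The windows of 3 genes that fell are printed to show where the words lie, in the direction of the gene and with the words in capitals. That of Mcm6 holds 3 words, of which 2 overlap on opposite strands. The positions are chr1:20820263-20820562 on the minus strand for Mcm3, chr1:128359656-128359955 on the minus strand for Mcm6 and chr19:38930740-38931039 on the plus strand for Hells.
Mcm3: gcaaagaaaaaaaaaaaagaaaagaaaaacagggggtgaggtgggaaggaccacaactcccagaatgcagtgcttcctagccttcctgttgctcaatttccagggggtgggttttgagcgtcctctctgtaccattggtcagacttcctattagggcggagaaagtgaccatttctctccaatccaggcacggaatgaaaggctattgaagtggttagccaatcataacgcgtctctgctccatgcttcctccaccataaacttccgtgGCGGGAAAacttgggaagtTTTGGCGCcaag
Mcm6: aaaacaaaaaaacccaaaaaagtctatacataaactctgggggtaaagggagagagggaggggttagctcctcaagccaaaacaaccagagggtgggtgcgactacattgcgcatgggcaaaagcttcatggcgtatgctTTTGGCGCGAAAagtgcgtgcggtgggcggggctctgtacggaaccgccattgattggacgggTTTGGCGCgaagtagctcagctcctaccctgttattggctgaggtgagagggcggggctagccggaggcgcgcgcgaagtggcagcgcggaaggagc
Hells: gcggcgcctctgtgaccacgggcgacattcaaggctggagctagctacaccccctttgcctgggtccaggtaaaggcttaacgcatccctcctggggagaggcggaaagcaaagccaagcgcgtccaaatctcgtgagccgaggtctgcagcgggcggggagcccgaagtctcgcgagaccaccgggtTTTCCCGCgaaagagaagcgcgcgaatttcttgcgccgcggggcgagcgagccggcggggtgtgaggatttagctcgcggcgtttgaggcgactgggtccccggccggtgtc

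The mitosis list had a similar median with no call. Its 22 tested genes had a median of -0.45, 21 were below 0 in both replicates against 32.4% of all genes, and 0 were called. The medians were -0.70 in replicate 1 and -0.25 in replicate 2, and the median came to -0.030 on the normexp and loess ratios of the M8 route. Ccna2, a cyclin of S phase and mitosis, was at -1.0 and -0.35 (adjusted p = 0.132), and Mki67, the proliferation marker, was at -0.93 and -0.36 (adjusted p = 0.108). Most of the decline of these genes followed later, since the median M8/M4 of the list was -2.93 and its median M8/M3 was -3.49.

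Of 11 tested fetal and imprinted growth genes 3 fell, against 1.14% of all genes, and 0 rose. The other 5 of the 16 members were not tested. Igf2 (-1.87 and -1.52) and Dlk1 (-1.40 and -1.15) were dropped because M8 was not well above background on all 4 arrays. This filter can remove genes that are low by 8 wk. With single-channel intensities Igf2 was at -0.43 and 0.04 and Dlk1 at -0.28 and -0.15. Gpc3, a cell surface proteoglycan of fetal liver, was at -2.18 and -2.15 and fell 4.39-fold (log2 -2.14 ± 0.13, SE; adjusted p = 0.00816). Its fall was nearly the same in females, at -1.62 and -2.05. The imprinted genes Mest and Plagl1 fell 1.65-fold and 1.63-fold (adjusted p = 0.0439 and 0.0442). Mest and Plagl1 were not called on the normexp and loess ratios (adjusted p = 0.0853 and 0.079), which left Gpc3 as the 1 call of the list. Afp, the fetal albumin relative, was at -1.19 and -0.78 and was not called (adjusted p = 0.28). Meg3, Peg3 and Grb10, also imprinted, differed in sign between replicates.

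**Figure D2:**
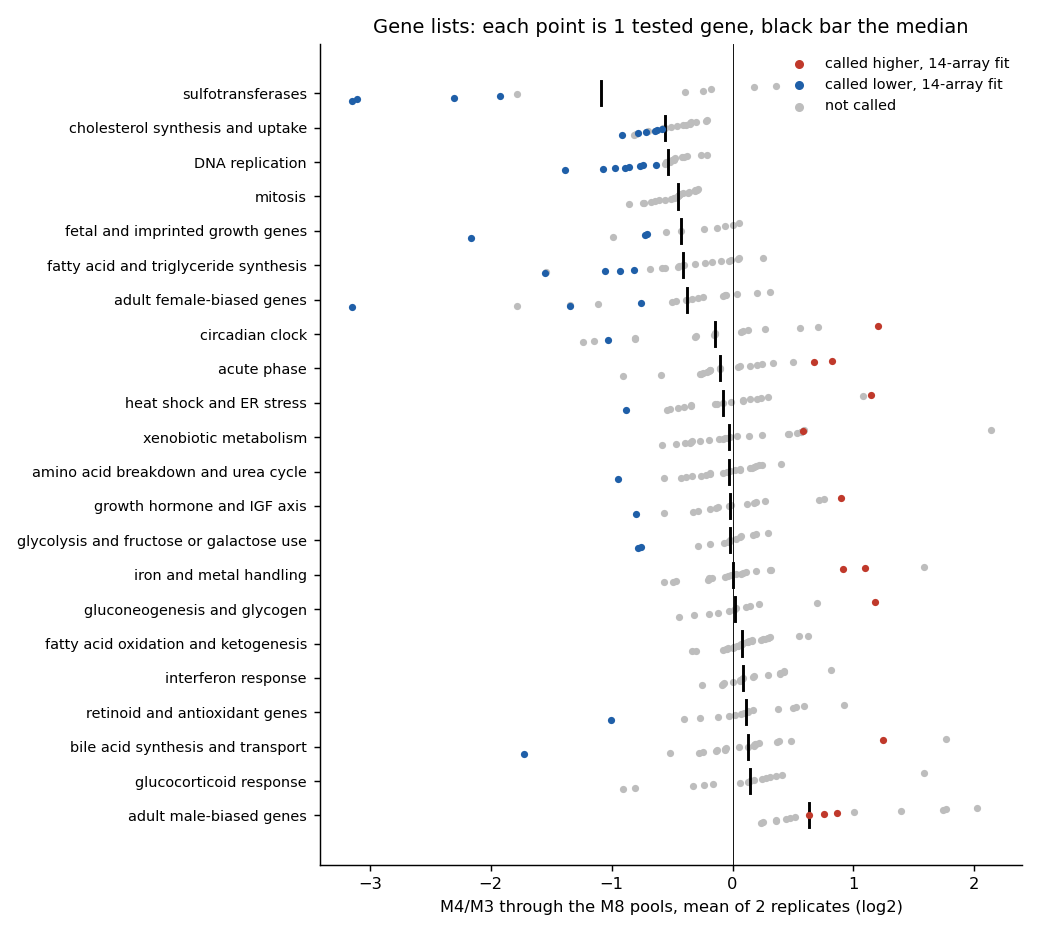
Log2 M4/M3 through the M8 pools (mean of 2 replicates, x axis) of every tested gene of 22 gene lists, with the median of each list as a black bar. Genes called by the 14-array fit are red (higher at 4 wk) or blue (lower), and all points of the cholesterol, DNA replication and mitosis lists lie left of 0.

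Of 15 tested genes known for adult male bias 12 were above 0 in both replicates, against 39.0% of all genes, 3 rose, against 1.05%, and 0 fell, with a median of 0.63 in males and -0.14 in F4/F3. The study named Ihh from these same arrays as male-specific by 4 wk, and C6, Cyp2u1 and Hsd3b5 were among its qPCR genes. The list and its counts are therefore not independent of these data. The medians of replicates 1 and 2 were 1.05 and 0.46. Ihh, a hedgehog ligand, was at 1.11 and 0.63 and rose 1.76-fold (adjusted p = 0.0229), and its F4/F3 was -0.53 and -0.34. Slco1a1, a carrier of organic anions, was at 0.50 and 0.76 and rose 1.53-fold (adjusted p = 0.0395). C6, a terminal complement component, was at 0.75 and 0.77 and rose 1.71-fold (adjusted p = 0.0393), but was not called without F8/F3 replicate 1 or 2 (adjusted p up to 0.0539). Ihh and Slco1a1 were not called on the normexp and loess ratios, whereas C6 was (adjusted p = 0.0718, 0.0546 and 0.0395). The largest values of the list did not pass. Cyp4a12a, a fatty acid hydroxylase of male liver, was at 2.47 and 1.57 (adjusted p = 0.0508), and Hsd3b5, a steroid dehydrogenase, was at 2.00 and 0.79 (adjusted p = 0.0946). For all 4 of Cyp4a12a, Cyp7b1, Hsd3b5 and Mup3 replicate 1 was the higher. These genes were still far below the adult level, with M8/M4 of 1.61 and 2.80 for Cyp4a12a.

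Genes known for adult female bias had a median of -0.38 in males and 0.42 in females, and 3 of 19 fell in males, against 1.14% of all genes. Tox, a nuclear protein of the HMG box family, was at -1.62 and -1.07 and fell 2.57-fold (adjusted p = 0.0142). Fmo2, a flavin monooxygenase, was at -0.81 and -0.71 and fell 1.75-fold (adjusted p = 0.0296). The third was Sult2a1, the 1 call of the list on the normexp and loess ratios, on which Tox and Fmo2 were not called (adjusted p = 0.0591 and 0.0939).

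Sult2a1 and Sult2a4, sulfotransferases of a family that conjugates steroids and bile acids, had the largest falls among called genes. Sult2a1 was at -4.34 in replicate 1 and -1.96 in replicate 2, and it fell 12.6-fold (log2 -3.65 ± 0.63, SE; adjusted p = 0.0351). The female route gave -5.57 and -3.72, and for Sult2a4 and Sult2a6 it gave means of -4.88 and -3.08 against -3.10 and -1.92 through M8. Sult2a4, Sult2a2 and Sult2a6 fell 13-fold, 5.56-fold and 4.96-fold, with replicate 1 the lower in each. Sult2a4 was at -4.29 and -1.92, but at -2.03 (mean of the replicates) with the mean over its 2 tested probes, which thus disagreed in size. Sult2a2 was at -3.48 and -1.13, and Sult2a6 at -2.76 and -1.09, so the size of all 4 falls differed widely between replicates. They are near copies whose probes may bind each other's RNA, so the 4 values may not be independent. Sult2a1 and Sult2a4 were not called without F8/F3 replicate 2 or without F8/F4 replicate 2, which gave adjusted p of up to 0.0663 and 0.0655. Sult2a2 was not called without either of these or F8/F3 replicate 1 (adjusted p up to 0.0655). Sult2a6 was called in 9 of the 14 fits that left out 1 array (adjusted p up to 0.10). On the normexp and loess ratios Sult2a4 and Sult2a6 were not called (adjusted p = 0.0515 and 0.0586), and Sult2a1 and Sult2a2 were (adjusted p = 0.0495 and 0.0492). Adult males had less still, with M8/M4 of Sult2a1 at -2.91 and -4.23. Sult3a1, a female-predominant member, was at -2.43 and -1.13 in males against 3.46 and 4.21 in females, and neither its male change (adjusted p = 0.207) nor any difference between the sexes passed. Of the 10 sulfotransferases tested 4 fell, against 1.14% of all genes, and 6 were not called.

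By the test of M4/M3 against F4/F3, 0 genes differed between the sexes. The smallest adjusted p was 0.50 with limma on the M8 and F8 routes and 0.32 in the 14-array fit, and 1045 and 938 genes had an unadjusted p under 0.05. Other treatments did call a difference, for 4 genes with single-channel intensities and for 41 with the deposited errors at an unadjusted p below 0.0001. A change called in males is not thereby shown to be absent in females.

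**Figure D3:**
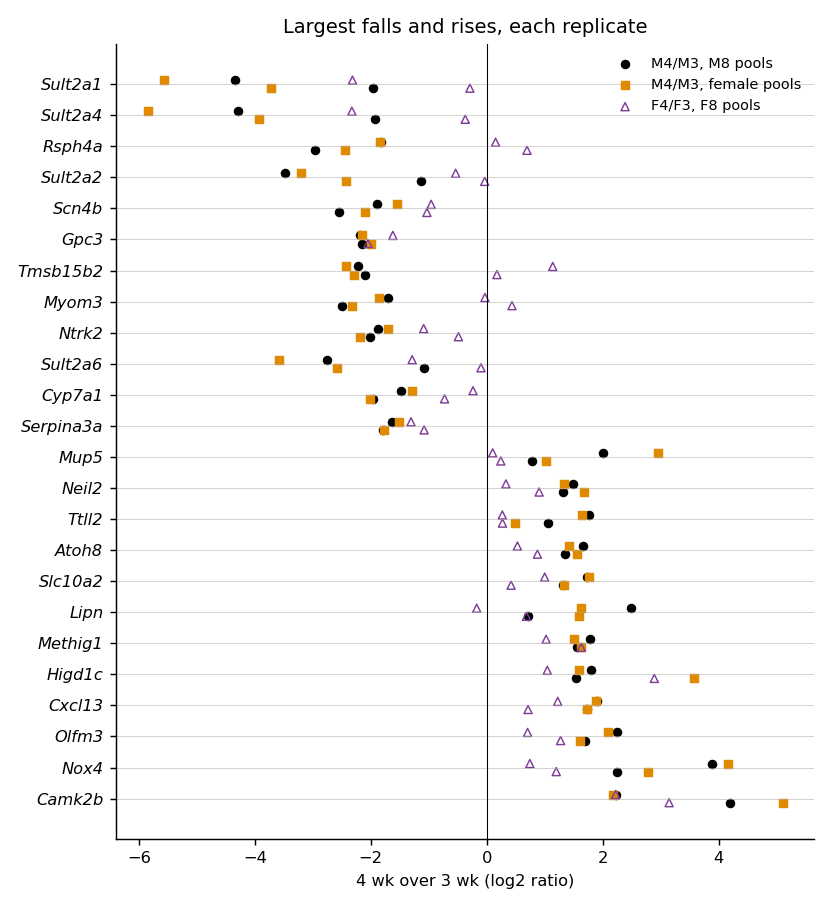
Log2 ratio of 4 over 3 wk (x axis) of the 12 genes with the largest falls and the 12 with the largest rises among those called, each replicate as a point. Circles are M4/M3 through the M8 pools, squares M4/M3 through the female pools and triangles F4/F3 through the F8 pools, and Tmsb15b2 and Rsph4a lie left of 0 in males and right of 0 in females.

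The 24 genes with the largest called changes, 12 in each direction, had M3 and M4 well above background on both of their arrays. No gene was called in the fit of the M8 route, so the rule that names them was applied to the 14-array fit after values had been seen. Camk2b, a calmodulin-dependent kinase subunit, was at 2.22 and 4.2 and rose 10.2-fold (log2 3.36 ± 0.53, SE; adjusted p = 0.0306). Nox4, an oxidase that makes hydrogen peroxide, was at 3.89 and 2.24 and rose 9.19-fold (adjusted p = 0.0203). On the normexp and loess ratios Camk2b was at 2.48 and called, and Nox4 was at 2.27 and not called (adjusted p = 0.0667). With single-channel intensities their means were 2.64 and 1.95 on the log2 scale. The other rises were between 1.40 and 1.97 (mean log2 through M8). Among them were Cxcl13, the B cell chemokine, at 1.90 and 1.73 and Atoh8, a transcription factor of the bHLH class, at 1.65 and 1.35, with adjusted p of 0.0302 and 0.00816. On the normexp and loess ratios Cxcl13 was at 0.95 and not called (adjusted p = 0.116).

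Several rises were smaller with other treatments of the signals. With single-channel intensities the 12 rises ranged from 0.15 to 2.64 with a median of 0.83, against a median of 1.64 by the deposited ratios. On normexp and loess ratios 4 of them were called (Camk2b, Slc10a2, Atoh8 and Methig1), with Methig1 lower there at 0.76. Olfm3 was at 1.03 on these ratios and was not called (adjusted p = 0.0888). Lipn, a lipase-like gene, was at 2.49 and 0.71, but came to -0.12 on the normexp and loess ratios, and -0.34 by the M8 route alone, and was not called without M3/F3 replicate 2 (adjusted p = 0.0554). Higd1c rose 3.94-fold, with means of 1.68 through M8 and 2.58 by the female route and log2 values of 1.63 to 2.67 when 1 array was left out. It was not called without M3/F3 replicate 2 or either M8/M3 array (adjusted p up to 0.11), and it was at 0.47 on the normexp and loess ratios, below the fold threshold. Ttll2 rose 2.46-fold and was not called without M8/M3 replicate 2 or M8/M4 replicate 2 (adjusted p up to 0.0658), and it was at 0.37 on the normexp and loess ratios and not called (adjusted p = 0.258). Mup5, a major urinary protein whose close relatives its probe may bind, was at 2.01 and 0.79, with a mean of 1.99 by the female route against 1.40 through M8, and was called in 3 of the 14 fits that left out 1 array (adjusted p up to 0.0822). On the normexp and loess ratios it was at 1.55 and was not called (adjusted p = 0.0747). Neil2, a DNA glycosylase, was at 1.49 and 1.32 and rose 2.71-fold, with 0.55 on the normexp and loess ratios, where it was not called (adjusted p = 0.0893).

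Of the 12 falls 6 were called on those ratios, and their single-channel values ranged from -4.25 to -0.87. Besides the Sult2a genes, Gpc3 and Cyp7a1, they included Serpina3a, a serine protease inhibitor of a family with several near copies, at -1.63 and -1.79 (3.21-fold, adjusted p = 0.0208). Scn4b, a sodium channel subunit, was at -1.89 and -2.54 (4.25-fold, adjusted p = 0.0199) and at -1.0 on the normexp and loess ratios, where it was called. Ntrk2, a neurotrophin receptor, was at -1.88 and -2.01 (3.85-fold, adjusted p = 0.0261) and at -1.19 on those ratios, where it was not called (adjusted p = 0.0853). Myom3, a protein of the muscle M band, was at -1.70 and -2.49 (4.26-fold, adjusted p = 0.0249) and at -1.11 on those ratios, where it was not called (adjusted p = 0.0551). Rsph4a and Tmsb15b2 were at -1.37 and -1.61 on those ratios and were not called (adjusted p = 0.0925 and 0.057).

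In the hormone and clock lists, of 16 and 17 tested genes, 1 rose and 1 fell in each, against 1.05% and 1.14% of all genes. Igfbp2, a binding protein of insulin-like growth factors, was at 0.86 and 0.93 and rose 1.85-fold (adjusted p = 0.00816). Igf1 itself was at -0.07 and 0.01. Onecut1, a hepatocyte transcription factor, fell 1.67-fold and was called in 5 of the 14 fits that left out 1 array (adjusted p up to 0.154), and it was not called on the normexp and loess ratios. Of the clock genes Nr1d2, a repressor of the clock, was at 1.31 and 1.1 and rose 2.32-fold (adjusted p = 0.0281), and Per2 was at -1.16 and -0.90 and fell 2.00-fold (adjusted p = 0.0115). Both had nearly the same values in females, with means of 1.19 and -0.89 in F4/F3. The hour of killing is not given in the sources used here, and its part in the clock values was not tested.

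In the lists of secreted and metal-binding proteins Hamp, the iron hormone hepcidin, was at 0.98 and 1.20 and rose 2.07-fold (adjusted p = 0.0395). It was not called without F8/F3 replicate 2 or F8/F4 replicate 1 (adjusted p up to 0.0564). Smad7, an inhibitor of BMP signalling that is known to restrain hepcidin, was at 1.16 and 0.67 and rose 1.88-fold (adjusted p = 0.0335). These were 2 of the 20 tested genes of the iron and metal list, against 1.05% of all genes, and the other 18 were not called. Orm1 and Orm2, the orosomucoids, which are near copies, rose 1.74-fold and 1.57-fold (adjusted p = 0.0348 and 0.0347) but were not called on the normexp and loess ratios (adjusted p = 0.0738 and 0.0752), while the median of the 20 acute phase genes was -0.11. They were the 2 calls of that list, against the same 1.05%. Mt1, a metallothionein, was at 1.33 and 1.84 but was not called (adjusted p = 0.192).

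Of the remaining lists, Prodh, the proline dehydrogenase, was the 1 gene called among 22 of amino acid breakdown and the urea cycle, where 2.19% of all genes were called in either direction. It was at -0.84 and -1.05 and fell 1.93-fold (adjusted p = 0.0122), and at 8 wk it was back at the 3 wk level, with M8/M3 of 0.03 and -0.01. Rdh9, a retinol dehydrogenase, was at -1.13 and -0.88 and fell 2.00-fold (adjusted p = 0.0103), the 1 call among 16 retinoid and antioxidant genes. Ces2a, a carboxylesterase, rose 1.51-fold, close to the threshold, and was called in 8 of the 14 fits that left out 1 array and not on the normexp and loess ratios. It was the 1 call among 24 genes of xenobiotic metabolism. Cyp1a1 had the highest value there, at 1.52 and 2.75, but was not called (adjusted p = 0.312). Chac1, which degrades glutathione, was at 1.51 and 0.78 and rose 2.22-fold (adjusted p = 0.0293), and Asns, the asparagine synthetase, was at -0.79 and -0.97 and fell 1.86-fold. Asns was called in 9 of the 14 fits that left out 1 array (adjusted p up to 0.0717). They were the 2 called among 19 genes of heat shock and ER stress, and neither was called on the normexp and loess ratios (adjusted p = 0.0527 and 0.067). No gene was called among 15 of the glucocorticoid response or 17 of the interferon response.

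Markers of other cells moved with some of these groups. In liver RNA fewer cells of a type and less RNA per cell cannot be told apart. The neutrophil and myeloid precursor markers S100a8, S100a9 and Camp fell 2.90-fold, 2.68-fold and 2.65-fold (adjusted p = 0.00816, 0.0122 and 0.00816). S100a8 was at -1.40 and -1.57 in males and at -1.89 and -1.86 in F4/F3. Of the 9 neutrophil and precursor markers on the array 8 were below 0 in both replicates, against 32.4% of all genes tested, and their summed intensity was 12369 and 10392 in M3 and 6449 and 5924 in M4. Of the 10 stellate and mesenchymal markers 9 were below 0 in both replicates, against the same 32.4%, with summed intensities of 207557 and 187773 in M3 and 143372 and 173401 in M4, and 0 were called. Of the 8 erythroid markers 6 were below 0 in both replicates, against 32.4%, with sums of 244400 and 267263 against 218275 and 235823, and 0 of the 5 tested were called. Of the 9 B and T lymphocyte markers 6 were below 0 in both replicates, but their sums overlapped, at 2326 and 1947 in M3 and 2318 and 2190 in M4, and 0 of the 7 tested were called. The Kupffer cell sums overlapped, at 78000 and 71131 in M3 and 74977 and 78830 in M4. Probes of the exocrine pancreas were high in the M3 pool of replicate 1, with Try4 at -6.54 in replicate 1 and 2.64 in replicate 2, and Try4 was not tested. The part of these cells in the falls of DNA replication, mitosis and fetal genes was not tested.

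The 8 wk pools place these changes in the course to adulthood. Gpc3, Uhrf1 and S100a8 continued down, with M8/M4 of -1.05 and -1.15, of -2.18 and -2.63 and of -0.87 and -0.56. Abcc3 and Igfbp2 continued up, with M8/M4 of 0.58 and 0.37 and of 0.81 and 0.94. Fdps was near its 4 wk level at 8 wk, with M8/M4 of 0.20 and 0.01, and the median M8/M4 of the cholesterol list was 0.10. Cyp7a1, Prodh and Thrsp had their lowest level at 4 wk, with M8/M4 of Prodh at 0.88 and 1.05 and of Thrsp at 0.46 and 0.96. These ratios share the M3, M4 and M8 pools with M4/M3 and are given as values only.

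**Figure D4:**
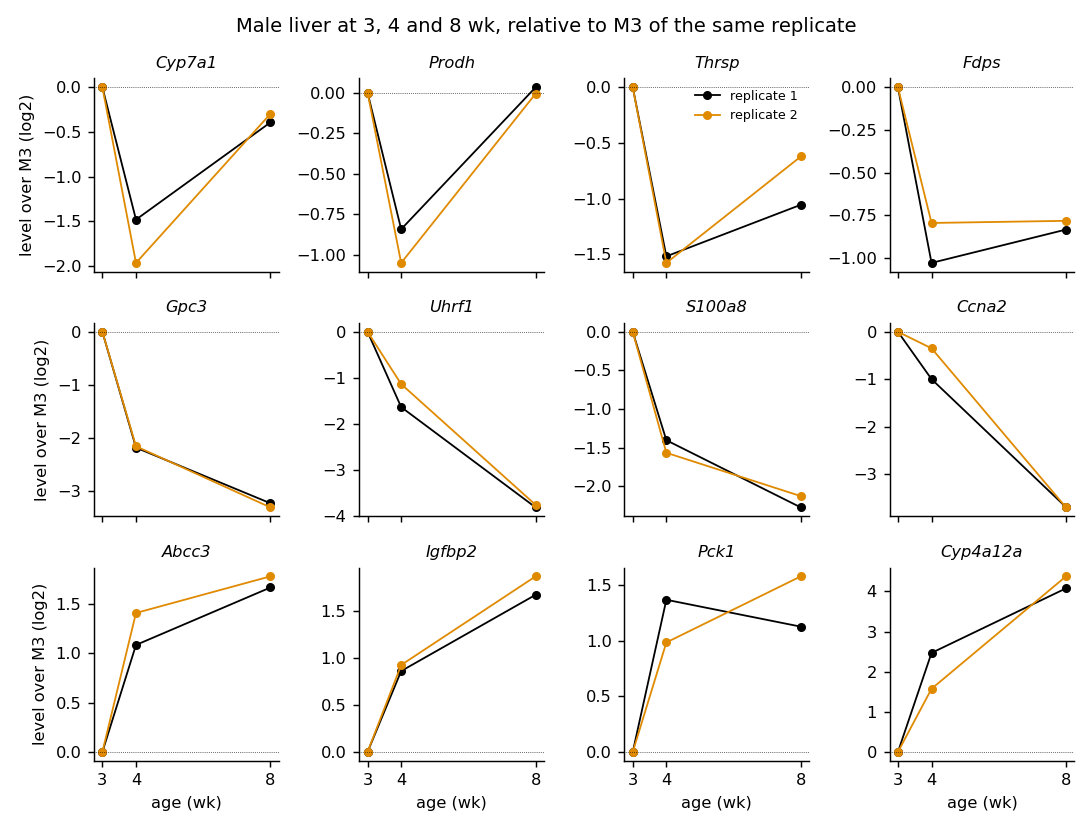
Log2 level of 12 genes in male liver at 3, 4 and 8 wk (x axis, wk) relative to the M3 pool of the same replicate number (y axis, log2), with 1 line per replicate; M4 is the difference of the 2 ratios to M8 and M8 is read from its array against M3. Cyp7a1, Prodh and Thrsp are lowest at 4 wk, whereas Gpc3, Uhrf1 and S100a8 decline further to 8 wk and Ccna2 changes mostly after 4 wk.

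For 256 genes M4 was well above background on both arrays and M3 on neither, and for 37 genes the reverse held, so their change has only a bound. M3 was well above background for 67.5% and 65.1% of spots and M4 for 69.1% and 69.6%. The 2 counts are therefore not set against each other. The bound was above 1.5-fold for 3 and 4 genes, respectively. The largest bound was that of 1700001C19Rik, at least 2.32-fold lower at 4 wk (the mean signal in M3 against the higher of the dim probe's own signal and the lowest signal well above background in M4), which was not called (adjusted p = 0.119). Ngp, a neutrophil granule gene, was at least 1.57-fold lower and was not tested. Of the 142 genes called higher, Msh4, Defa27, Olfr394, Pabpc6, Slc22a16 and Sstr2 had M3 well above background on neither array. They passed the filter only through M4, and no fold is given for them. For Pabpc6, Slc22a16 and Sstr2 the mean log2 signal was lower in M4 (6.73, 6.76 and 6.66) than in M3 (6.76, 6.84 and 6.83). For these genes even the direction has no bound.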

How the data were processed

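Liver RNA pools were hybridised to Agilent 4x44K mouse arrays. The deposited scanner output of the authors holds red and green intensities and, from Agilent Feature Extraction 10.7.1.1 after background subtraction and linear and LOWESS normalization within each array, the log10 ratio of red over green with its modelled error; the deposited series table was identical. Ratios were converted to log2 and turned by the dye labels, replicate spots were averaged, and non-uniform spots (at most 10 per array) were left out. Probes were named through RefSeq accessions (26055 of 39429), and a gene was read from its brightest tested probe. Tested were 23199 probes with M3 or M4 well above background on both arrays and M8 on all 4. M4/M3 and F4/F3 were fitted together with limma 3.58.1 (R 4.3.3, version 1.17.8 of data.table) with 2 residual degrees of freedom, paired by replicate number, which names the same pools. Replicate differences of M8/M3 and M8/M4 correlated at r = 0.65 across probes. The dyes were swapped alike in both comparisons, so dye bias of a probe also enters this r. It therefore cannot show that pools were shared. Arrays of 1 replicate number share pools, so p-values measure the spread between pools. The 14-array fit solved the pool levels of each replicate number by least squares and fitted group, replicate number and dye, with 4 residual degrees of freedom (23186 probes). Benjamini-Hochberg correction ran over every probe tested. Named genes were the 12 largest rises and falls among called genes with 1 direction in both replicates, then called and defining list members, of which some are not reported here. Members and lists were chosen with earlier results of these data known. Alternatives changed the pairing, route, background correction, centring, probe filter, probe choice, spread and fold threshold and left out replicates. The fits were tested on simulated data. No per-sample column was left unused.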

Additional observations from a re-analysis of the deposited data

Results flagged for a closer look

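Rsph4a, a gene of the radial spoke of cilia, was below 0 in both male replicates (-1.83 and -2.96) and above 0 in both female replicates (mean 0.42). The male minus female difference in the 14-array fit was -2.65 ± 0.54 (SE), with an adjusted p of 0.415. Tmsb15b2, of the thymosin beta family, was at -2.21 and -2.10 in males and above 0 in both female replicates (mean 0.66). Its difference was -2.95 ± 0.54 (SE), with an adjusted p of 0.404. Both were noticed because the male and female replicates lay on opposite sides of 0, and neither difference passed the test.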

How the results depend on the processing

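On the M8 route 0 genes were called in either direction on normexp and loess ratios, with centred arrays, through the female pools, with male columns alone, under each filter on dim probes, without male replicate 1 or 2, and at no or a 2-fold threshold. With no replicate block 31 genes (0.229% of those tested) were higher and 45 (0.333%) lower, and 30 and 42 of these were also called by the 14-array fit. The 14-array fit called 142 (1.05%) and 154 (1.14%). Single-channel intensities called 104 (0.769%) and 61 (0.451%), of which it shared 27 and 47, and the deposited errors 75 in each direction (0.555%), of which it shared 38 and 56. The mean over probes called 0.577% and 0.791% of genes, of which it shared 51 and 81 genes. The difference between the sexes was called for 4 genes with single-channel intensities and 41 with the deposited errors. The causes of these gaps were not tested. In the 14-array fit the counts were 52 and 43 on normexp and loess ratios, 407 and 420 with no fold threshold, 38 and 47 at 2-fold, 122 and 140 with no dye term and 126 and 169 with centred arrays, and leaving out 1 array gave 112 to 143 and 133 to 159. Of the 142 genes that rose 74, and of the 154 that fell 95, were called with any 1 array left out, and 45 and 38 of those also on normexp and loess ratios.

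List medians moved by more than the spread between replicates as follows. With single-channel intensities they were -0.063 for glycolysis, -0.097 for amino acid breakdown, 0.10 for xenobiotic metabolism, -0.29 for fetal and imprinted genes, -0.20 for clock genes, 0.029 for the glucocorticoid response and -0.062 for iron and metal handling. Through the female pools they were -0.071 for amino acid breakdown, -0.29 for fetal and imprinted genes, -0.17 for clock genes, 0.085 for the glucocorticoid response and 0.021 for iron and metal handling. On normexp and loess ratios they were -0.096 for amino acid breakdown, -0.21 for fetal and imprinted genes, -0.030 for mitosis, -0.17 for clock genes and -0.055 for iron and metal handling. With the mean over probes they were -0.059 for amino acid breakdown, 0.088 for the growth hormone axis and -0.32 for fetal and imprinted genes. The 14-array fit gave -0.38 for fetal and imprinted genes and -0.17 for clock genes, no condition on M8 gave -0.55 for fetal and imprinted genes, and centring gave -0.16 for clock genes and -0.0080 for iron and metal handling. Without 1 male replicate the medians ranged from -0.0078 to 0.042 for glycolysis, -0.56 to -0.43 for cholesterol, -0.033 to 0.18 for bile acids, -0.073 to -0.045 for amino acid breakdown, 0.46 to 1.05 for male-biased genes, -0.47 to -0.43 for fetal and imprinted genes, 0.063 to 0.14 for the glucocorticoid response, -0.0098 to 0.0057 for iron and metal handling, -0.12 to -0.047 for the acute phase and 0.075 to 0.21 for the interferon response. The medians of cholesterol, DNA replication, fatty acid synthesis and sulfotransferase genes stayed below 0 under every alternative run. Of the 24 genes with the largest changes only Lipn changed sign, to -0.34 on normexp and loess ratios.

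Precision was limited by 2 pairs of pools, and the weakest probes by their signal over background.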

Other observations

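Genes outside the lists and the 24 largest changes were looked at among those called with any 1 array left out and on normexp and loess ratios. They were chosen after their values were seen. Alas1, the first enzyme of heme synthesis, was at -1.38 and -0.99 and fell 2.31-fold, with F4/F3 of -1.58 and -1.16. Aacs, which activates acetoacetate for lipid synthesis, was at -1.01 and -0.86 and fell 1.91-fold. Angptl8, a secreted regulator of lipoprotein lipase, was at -1.19 and -0.83 in males and fell 2.06-fold, against 0.44 and 0.47 in females. Psat1, of serine synthesis, was at -1.22 and -1.15 and fell 2.24-fold. Ppbp and Pf4, chemokines of platelets and megakaryocytes, fell 2.23-fold and 1.69-fold.

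Among the rises Etnppl, a phosphoethanolamine lyase, was at 1.46 and 1.33 and rose 2.67-fold. Sucnr1, the succinate receptor, was at 1.45 and 1.12 and rose 2.43-fold. Fst, the activin-binding protein follistatin, was at 1.54 and 1.07 in males and rose 2.48-fold, against 0.05 and -0.68 in females. Retsat, a retinol saturase, was at 0.75 and 0.87 and rose 1.76-fold, against 0.05 and 0.03 in females. Ctsc, the cathepsin that activates granule proteases, was at 1.1 and 0.88 and rose 1.96-fold, and was back near its 3 wk level at 8 wk, with M8/M3 of -0.03 and -0.13. No difference between the sexes passed the test for any of these genes.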
